A study of Mus musculus with 8 samples.

Results

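The genes of fatty acid use Angptl4, Pdk4, Cd36, Cpt1a, Acadm, Ehhadh, Bdh1 and Bdh2, were followed across 8 two-colour Agilent arrays of mouse small-intestinal organoids, epithelial cultures that grow from crypts. They were chosen by gene symbol, as known targets of the PPAR nuclear receptors or enzymes of fatty acid and ketone body oxidation. All 8 were among the 19339 genes kept after removal of dim probes, and they are covered by 12 probes. Each array carried the RNA of a culture, called its own RNA, and that of a control culture, and every ratio below is log2 of own RNA over control. All organoids had received a 16 h pulse of 4OH-tamoxifen, which activates CreERT2, and 500 ng of RNA was labelled. Experiment 1 held 2 arrays (replicates 1 and 2) of organoids transduced with Ascl2, driven by CMV and taken 24 h later, against VillinCreERT2 organoids, with the dyes exchanged on replicate 2. Experiment 2 held 1 array each of organoids that were Tcf7l2 null, that were Tcf7l2 null and also overexpressed Ascl2 (called both changes below), and that only overexpressed Ascl2, all against the same dsGFP transduced control. Experiment 3 set Ascl2 null organoids, on 1 array, against VillinCreERT2 organoids. The dsGFP control of experiment 2 and the VillinCreERT2 control of experiment 3 were each also hybridised against themselves, and these 2 self-self arrays show technical spread and dye bias. VillinCreERT2 places the inducible recombinase under the promoter of villin, an intestinal epithelial gene. The labels of the experiment 3 control conflict between a VillinCreERT2 genotype and a floxed Ascl2 description, and the former is used here. Each experiment was on a slide of its own, so slide and experiment cannot be told apart.

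PPARs are nuclear receptors that bind fatty acids and their derivatives and act as heterodimers with RXR on a direct repeat of the AGGTCA half-site. In the small intestine, absorptive enterocytes take up dietary lipid, and PPAR alpha and delta drive genes for its uptake, storage and oxidation. Angptl4 encodes a secreted inhibitor of lipoprotein lipase, Pdk4 a kinase that restrains pyruvate dehydrogenase, and Cd36 a fatty acid transporter. Cpt1a controls the entry of long-chain fatty acids into mitochondria, Acadm is the medium-chain acyl-CoA dehydrogenase, and Ehhadh is the peroxisomal bifunctional enzyme. Bdh1 is the mitochondrial 3-hydroxybutyrate dehydrogenase, and Bdh2 is a cytosolic dehydrogenase of related name.

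Promoter windows of 250 bases upstream of the start site were found in RefSeq's GRCm38.p6 table for 7 of the 8 genes (8 windows, 2 of them for Bdh1), and not for Angptl4. Windows of the genes that hold the half-site, Cpt1a, Cd36 and Acadm, are shown with that of Bdh2, which had among the highest ratios and lacks it. They lie at chr19:3323051-3323300 (plus strand), chr5:17835897-17836146 (minus strand), chr3:153944644-153944893 (minus strand) and chr3:135280971-135281220 (plus strand). Capitals mark the half-site, which in all 3 genes lies on the opposite strand and is read as TGACCT.
Cpt1a: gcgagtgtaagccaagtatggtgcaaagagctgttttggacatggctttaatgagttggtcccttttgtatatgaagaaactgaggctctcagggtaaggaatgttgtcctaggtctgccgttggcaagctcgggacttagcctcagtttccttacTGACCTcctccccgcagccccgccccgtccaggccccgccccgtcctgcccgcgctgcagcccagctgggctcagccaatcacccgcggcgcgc
Cd36: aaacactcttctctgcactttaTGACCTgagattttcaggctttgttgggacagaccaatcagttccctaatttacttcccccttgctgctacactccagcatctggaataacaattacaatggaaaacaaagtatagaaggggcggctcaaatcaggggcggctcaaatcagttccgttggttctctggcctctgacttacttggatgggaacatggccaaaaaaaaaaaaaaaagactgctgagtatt
Acadm: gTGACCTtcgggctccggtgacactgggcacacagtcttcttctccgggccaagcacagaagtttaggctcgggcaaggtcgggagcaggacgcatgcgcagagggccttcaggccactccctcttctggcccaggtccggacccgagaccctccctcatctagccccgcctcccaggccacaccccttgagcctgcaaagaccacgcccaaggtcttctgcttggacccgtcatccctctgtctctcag
Bdh2: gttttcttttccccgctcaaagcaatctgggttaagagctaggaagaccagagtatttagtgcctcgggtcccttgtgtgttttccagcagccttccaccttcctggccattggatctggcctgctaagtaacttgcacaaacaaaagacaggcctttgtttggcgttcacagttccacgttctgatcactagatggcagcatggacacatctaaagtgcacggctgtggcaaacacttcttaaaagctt
The half-site AGGTCA, searched on both strands, was in 3 of the 8 windows and in 14% of 32851 windows of this length. It ended 89 bases before the start in Cpt1a, 223 in Cd36 and 244 in Acadm. The direct repeat of AGGTCA with 1 base between the copies, which contains the half-site, was in 0 of the 8 and in 0.0335% of all windows on either strand, and the same repeat of AGGNCA in 0 and in 0.338%. These are matches of letters within a short window and describe no binding.

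The targeted genes were examined next. The Ascl2 probe was not higher on the arrays labelled Ascl2 overexpression, at -0.31 and 0.01 in experiment 1 and -0.68 in experiment 2. With both changes it was -0.92, and on the array labelled Ascl2 null -1.07. For Tcf7l2 the brightest probe gave -0.35 where the label was Tcf7l2 null and 0.18 with both changes, beside 0.37 and -0.34 on the self-self arrays. The sources used here do not give whether these probes lie in deleted or introduced sequence, so conditions are named by the array labels and every direction rests on them. Markers of the labelled tissue were present: all 20 enterocyte and all 8 epithelial markers were well above background in all 16 channels. Of markers of cells that could accompany them, 3 of 7 adipocyte (Adipoq, Lep and Cfd), 2 of 6 endothelial (Pecam1 and Cdh5), 1 of 6 macrophage (Adgre1) and 0 of 6 fibroblast genes were above background in no channel. In each of these lists 1 gene was so in 16 of 16 channels, Cidec, Vwf, Lyz2 and Col1a2 in that order. Tek reached 13, Csf1r 12 and Itgam 10 channels, and the other listed genes 1 to 5.

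Angptl4 spanned the widest range of the 8 genes. Its probe (mm9, chr17:33911880-33911939, minus strand) was well above background in both channels of all 8 arrays. Probe positions are those of the array's annotation; exon and UTR annotation of that build was not used here. The ratio was 0.18 and 0.05 in experiment 1, 0.22 with loss of Tcf7l2, 1.90 with Ascl2 overexpression in experiment 2, 3.03 with both, and 4.11 on the Ascl2 null array. The self-self arrays gave 0.33 and 0.04. The last 3 of these arrays were thus high, at 3.73-fold, 8.19-fold and 17.3-fold over control, and the other 3 were no farther from 0 than the dsGFP self-self array. Among all genes measured on an array, Angptl4 ranked 38th from the highest with Ascl2 overexpression in experiment 2, 17th with both changes and 16th on the Ascl2 null array. No biological replicate exists for these 3 arrays, and in whole cultures more expressing cells and more RNA per cell cannot be told apart.

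The levels behind these ratios differed between controls. After normalisation within and between arrays, Angptl4 had a log2 intensity of 7.85 to 8.30 over the 5 channels of dsGFP RNA and 8.37 to 8.50 over the 3 channels of experiment 3's VillinCreERT2 RNA. In the VillinCreERT2 RNA of experiment 1 it was 10.56 and 10.71, and in its Ascl2-overexpressing RNA 10.74 and 10.77. The Ascl2-overexpressing RNA of experiment 2, with a ratio of 1.90, stood at 9.75, below both RNAs of experiment 1. The Tcf7l2 null RNA was at 8.28, within the dsGFP range, that with Ascl2 overexpression at 11.22 and the Ascl2 null RNA at 12.61. The VillinCreERT2 controls of experiments 1 and 3 carry the same genotype label, and the latter was lower by 4.64-fold.

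Bdh2 was the other gene with large ratios, but it lay on both sides of 0. Its brightest probe (mm9, chr3:134967306-134967365, plus strand) gave -1.38 and -0.22 in experiment 1, -1.09 on the Tcf7l2 null array, 1.09 with Ascl2 overexpression in experiment 2, 1.95 with both changes, and 2.11 on the Ascl2 null array. The self-self arrays gave 0.35 and -0.01. Low values thus came from replicate 1 of experiment 1 and from loss of Tcf7l2, and the 3 high values came from the arrays that were high for Angptl4. The lowest, -1.38, was the 17th lowest of all genes on its array, while replicate 2 of that experiment, at -0.22, was within the size of the self-self values. A second probe crosses at least 1 intron, its 60 bases being placed across 4185 bases (mm9, chr3:134954050-134958234), and is shown because its ratios were smaller than those of the brighter probe on all 6 comparison arrays.
Bdh2 second probe: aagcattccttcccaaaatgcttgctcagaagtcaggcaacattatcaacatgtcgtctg
This probe gave -1.02, -0.03, -0.46, 0.45, 1.49 and 0.78 on the same 6 arrays in that order, the same sign as the brighter probe on each, with 0.05 and -0.17 on the self-self arrays. On the Ascl2 null array the probes differed most, 2.11 against 0.78.

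Cd36 was low with loss of Tcf7l2, high with both changes and, by its brightest probe, near 0 on the Ascl2 null array. The brightest probe (mm9, chr5:17289110-17291542, minus strand) gave -0.80 and -0.23 in experiment 1, -0.94 on the Tcf7l2 null array, 0.05 with Ascl2 overexpression in experiment 2, 1.08 with both, and 0.07 on the Ascl2 null array. The self-self arrays gave 0.05 and -0.34. The Tcf7l2 null array and that with both changes were therefore the lowest and the highest, with 4 values between them. A second probe (chr5:17288600-17288659) gave -1.01 and 0.89 on those arrays and 0.45 on the Ascl2 null array, with 0.17 and -0.03 on the self-self arrays. On the Ascl2 null array both probes thus lay above their self-self value of experiment 3. In the controls the level of Cd36 was 10.91 and 11.09 in experiment 1 and 10.37 to 10.52 in dsGFP RNA, but 8.29 to 8.71 in experiment 3.

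Pdk4 was close to background, which limits its ratios. Its probe (mm9, chr6:5433441-5433500, minus strand) was well above background in Cy3 on 2 arrays and in Cy5 on 4, and in none of the 5 dsGFP channels. The ratio was -0.08 and -0.01 in experiment 1, 0.04 on the Tcf7l2 null array, 0.32 with Ascl2 overexpression in experiment 2, 0.59 with both, and 0.74 on the Ascl2 null array, with 0.02 and -0.01 on the self-self arrays. The same 3 arrays as for Angptl4 and Bdh2 were the highest. As folds over dsGFP, the ratios were 1.502 with both changes and 1.25 with Ascl2 overexpression alone. The dim dsGFP signal already exceeded the lowest signal well above background in its channel. These folds are therefore the measured ratios and not lower bounds. On the Ascl2 null array both channels were well above background. The background correction adds a constant that pulls dim ratios towards 0, and the scanner's own log ratio gave 1.64 with Ascl2 overexpression in experiment 2, 2.87 with both changes and 1.67 on the Ascl2 null array, with -0.76 on the dsGFP self-self array.

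**Figure D1:**
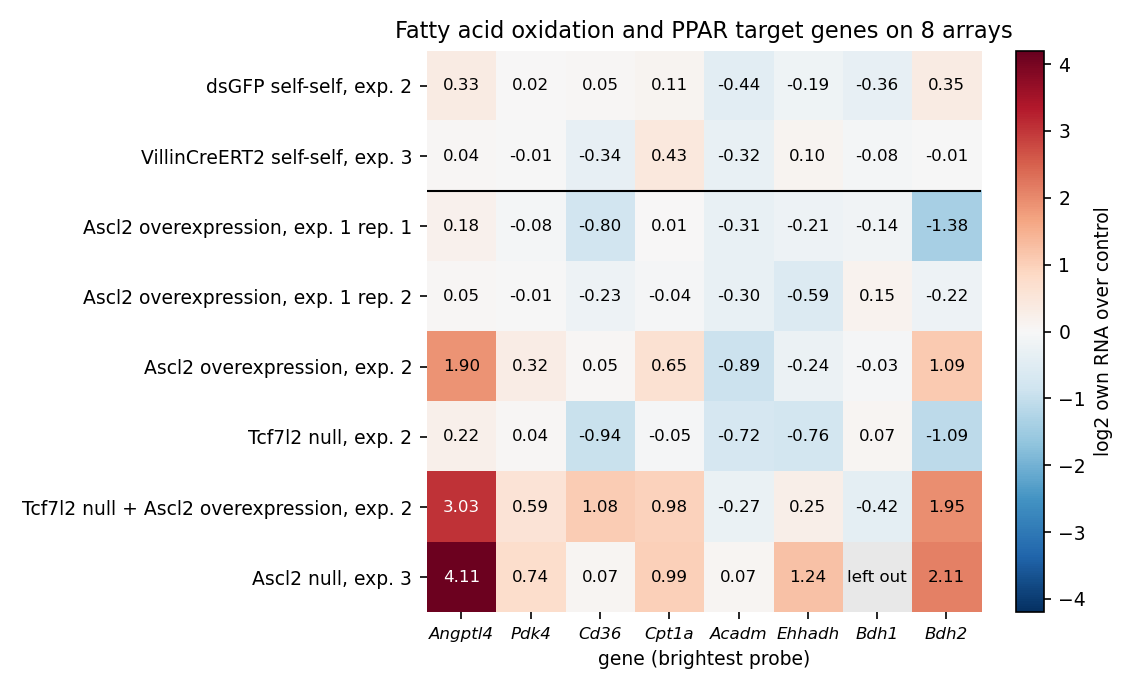
Log2 ratio of own RNA over control for each gene's brightest probe (columns) on each of the 8 arrays (rows; self-self arrays above the line), printed in each cell and coloured from blue (lower) to red (higher). Angptl4, Bdh2, Cpt1a and Pdk4 were above both self-self values on the lowest 2 rows and with Ascl2 overexpression in experiment 2; the Bdh1 spot of the Ascl2 null array was an outlier and is left out.

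Of the oxidation enzymes, Cpt1a was measured most precisely, by 10 spots of a probe (mm9, chr19:3385374-3385433, plus strand). It gave 0.01 and -0.04 in experiment 1, -0.05 on the Tcf7l2 null array, 0.65 with Ascl2 overexpression in experiment 2, 0.98 with both, and 0.99 on the Ascl2 null array. The SD over the spots was 0.013 to 0.068 per array, which covers the array surface and not cultures. The self-self arrays gave 0.11 and 0.43, so the value with Ascl2 overexpression alone exceeded the larger of them by little. A second probe (chr19:3384629-3384688) gave -0.17 and 0.01, 0.04, 0.29, 0.65 and 1.13 in the same order, with -0.10 and 0.59 on the self-self arrays, so its 0.29 lay within their range. Its 1.13 on the Ascl2 null array likewise stands beside the 0.59 of experiment 3.

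Ehhadh was lower on 4 arrays and higher on 2. The ratio (mm9, chr16:21761914-21761973, minus strand) was -0.21 and -0.59 in experiment 1, -0.76 on the Tcf7l2 null array, -0.24 with Ascl2 overexpression in experiment 2, 0.25 with both, and 1.24 on the Ascl2 null array, with -0.19 and 0.10 on the self-self arrays. The Ascl2 null array stood apart at 2.36-fold. Its level there, 11.77, was nevertheless below the 12.26 to 12.57 of dsGFP RNA, because the experiment 3 control itself was at 10.39 to 10.53.

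Acadm was not higher than control by more than 0.07 on any array. The ratio (mm9, chr3:153585670-153585729, minus strand) was -0.31 and -0.30 in experiment 1, -0.72 on the Tcf7l2 null array, -0.89 with Ascl2 overexpression in experiment 2, -0.27 with both, and 0.07 on the Ascl2 null array. Both self-self arrays were negative as well, at -0.44 and -0.32, and the -0.72 and -0.89 of experiment 2 lay below them. Replicate 2 of experiment 1 had its own RNA in Cy3, so a dye bias enters its ratio with the opposite sign. Its -0.30 therefore cannot be ranked against the self-self values as they stand. The -0.31 of replicate 1, with own RNA in Cy5 as on the self-self arrays, was no lower than either of them. With replicate 1 left out, the model, which holds a dye term, gave -0.68 for Acadm in experiment 1. With replicate 2 left out it gave 0.066.

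Bdh1 showed no ratio beyond 2-fold on its brightest probe (mm9, chr16:31457378-31457437, plus strand). It gave -0.14 and 0.15 in experiment 1, 0.07, -0.03 and -0.42 on the Tcf7l2 null, Ascl2 overexpression and combined arrays of experiment 2, and -0.36 and -0.08 on the self-self arrays. The spot of the Ascl2 null array was an outlier in the scanner file; the ratio left out was 0.23. The dimmer second probe (chr16:31458195-31458254) gave 1.79 there and 0.57 on the self-self array of that slide, with values from 0.01 to 0.17 on the other 6 arrays. The probes thus differ on the Ascl2 null array, and no level is given for Bdh1 in that RNA.

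**Figure D2:**
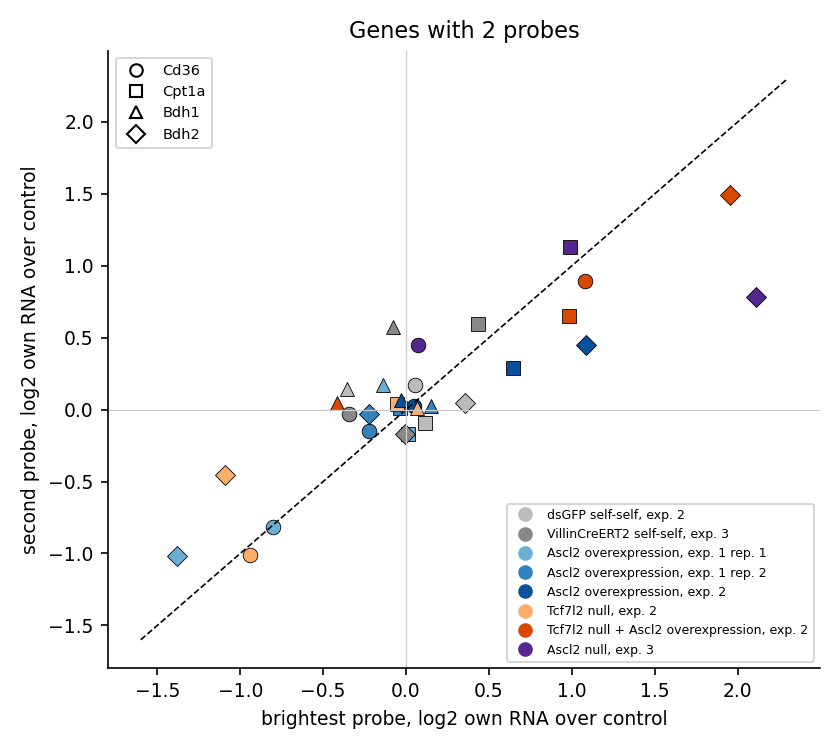
Log2 ratio of own RNA over control of the second probe (vertical) against the brightest probe (horizontal) for Cd36, Cpt1a, Bdh1 and Bdh2, coloured by array; the dashed line marks equal values. The Bdh2 points lie closer to 0 on the vertical axis than on the horizontal one on the 6 comparison arrays, and the Cd36 points lie near the line.

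The 8 genes were then read together against all genes. In experiment 1, replicate 1 had 0 of 8 at least 2-fold higher, beside 0.305% of all genes, and 1 of 8 (Bdh2) at least 2-fold lower, beside 0.455%. Replicate 2 had 0 in either direction, beside 0.13% higher and 0.156% lower. With loss of Tcf7l2, 0 of 8 were at least 2-fold higher, beside 0.414%, and 1 (Bdh2) lower, beside 0.538%. Ascl2 overexpression in experiment 2 had 2 of 8 (Angptl4, Bdh2) at least 2-fold higher, beside 1.05%, and 0 lower, beside 0.943%. Both changes gave 3 of 8 higher (also Cd36), beside 1.25%, and 0 lower, beside 2.17%. On the Ascl2 null array 3 of 7 (Angptl4, Bdh2, Ehhadh) were at least 2-fold higher, beside 2.27%, and 0 lower, beside 1.65%. Cpt1a was just short of 2-fold on the last 2 arrays. The self-self arrays had 0 of 8 in either direction, beside 0.00519% higher and 0.0156% lower for dsGFP and 0.109% higher and 0.0362% lower for VillinCreERT2. The arrays of experiment 2 share their control RNA, so their counts are not independent of each other.

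The count of members depended on the scaling at several arrays. The Tcf7l2 null count of 1 was 0 with median centring in place of loess, with the mean of a gene's probes or with the dye term subtracted, the Bdh2 ratio being -0.80 with median centring. With the scanner's log ratio the count was 5 of 8 for both changes together, adding Pdk4 and Cpt1a, but 12.3% of all genes were then at or beyond 2-fold, against 3.41% here. On the Ascl2 null array Ehhadh was just short of 2-fold with median centring, at 0.997, leaving 2 genes. Over all genes, median centring also turned the split of genes at or beyond 2-fold, from 80 higher and 104 lower to 486 and 26 on the Tcf7l2 null array, from 241 and 418 to 525 and 289 with both changes, from 203 and 182 to 162 and 255 with Ascl2 overexpression, and from 438 and 318 to 323 and 559 on the Ascl2 null array. It moved the median of all genes on the Tcf7l2 null array to 0.11. Small ratios changed sign with it: Acadm was 0.24 and Bdh1 0.08 with both changes, Cpt1a was 0.29 on the Tcf7l2 null array, Cd36 was -0.11 with Ascl2 overexpression, Pdk4 was -0.08 on the Tcf7l2 null array, and Acadm and Cd36 were -0.12 and -0.08 on the Ascl2 null array.

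Tcf7l2 null organoids with and without Ascl2 overexpression were set against each other, a difference in which the shared dsGFP control and a probe's dye bias cancel. With Ascl2 overexpression 5 of 8 genes were at least 2-fold higher, beside 2.88% of all genes, and 0 lower, beside 4.79%. The difference was 3.05 for Bdh2, 2.82 for Angptl4 and 2.02 for Cd36, which ranked 21st, 30th and 71st from the highest of all genes. Cpt1a and Ehhadh differed by 1.03 and 1.01, just past the threshold. Cpt1a was short of it with median centring (0.957) and with the mean of its probes, each leaving 4 of 8 genes, and its second probe differed by 0.61. The second Bdh2 probe differed by 1.95. Acadm was short of the threshold at 0.45, and Bdh1 was lower, at -0.48. Pdk4 differed by 0.54, but it was not well above background in either channel of the Tcf7l2 null array, and the scanner's log ratio gave 1.94 and so 6 of 8 genes, with 19.3% of all genes at or beyond 2-fold against 7.67% here. The median of the 8 was 1.02 and that of all genes 0.02. These are differences between 2 arrays with no replicate, and no test applies.

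The effect of Ascl2 overexpression was tested over its 3 arrays with limma. At an adjusted p under 0.05 it called 0 of the 19339 genes (0%) and so 0 of the 8. At an unadjusted p under 0.05 there were 1325 genes, 3.06% of all being higher and 3.79% lower. Ehhadh was -0.37 ± 0.10 (SE, n = 3, limma adjusted p = 0.416) and Acadm -0.42 ± 0.14 (SE, n = 3, limma adjusted p = 0.535). Both had ratios below 0 on all 3 arrays and were the only members with an unadjusted p under 0.05. On replicate 1 of experiment 1 Acadm, at -0.31, was no lower than on the self-self arrays, at -0.44 and -0.32. Angptl4 was 0.59 ± 0.32 (limma adjusted p = 0.942), above 0 on 3 of 3 arrays. Its 0.18 and 0.05 in experiment 1 were no farther from 0 than the 0.33 of the dsGFP self-self array. Bdh2 was -0.20 ± 0.43 (limma adjusted p = 0.9995), its arrays lying on both sides of 0. In experiment 1 alone limma called 0 genes as well (0%), with 1504 at an unadjusted p under 0.05, 3.41% of all being higher and 4.37% lower. Among the 8 genes these were Cd36 at -0.51 ± 0.13 (SE, n = 2; limma adjusted p = 0.299), Bdh2 at -0.80 ± 0.24 (limma adjusted p = 0.415) and Ehhadh at -0.40 ± 0.13 (limma adjusted p = 0.470), each lower on 2 of 2 arrays. Without replicate 1 Bdh2 was -0.050 and Ehhadh -0.63, and without replicate 2 they were -1.56 and -0.16. Nothing in the labels tells whether the 2 replicates were separate cultures, so these p-values measure the spread between arrays, which may be technical.

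The Ascl2 arrays of the experiments were then compared directly, as experiment 2 minus experiment 1. The model called 81 of 19301 genes (0.42%), and none of the 8; at an unadjusted p under 0.05, 4% of genes were higher and 3.62% lower, and 3 of the 8 were higher. Angptl4 came nearest, 1.66 ± 0.22 higher in experiment 2 (SE; limma adjusted p = 0.0551), and it passed without the filter on dim probes (limma adjusted p = 0.0497) and with the mean of a gene's probes (limma adjusted p = 0.0474, the same single probe). It was 1.47 without replicate 1 of experiment 1 (limma adjusted p = 0.766) and 1.06 with median centring (limma adjusted p = 0.606). Bdh2 was 2.09 ± 0.46 higher (limma adjusted p = 0.212) and passed with the authors' deposited values (2.54, limma adjusted p = 0.0444) and without replicate 2 of experiment 1 (2.47, limma adjusted p = 0.0166), but it was 0.96 without replicate 1 (limma adjusted p = 0.9999) and 1.47 with median centring (limma adjusted p = 0.606). Cd36 differed by 0.78 ± 0.25 (limma adjusted p = 0.467). The difference sets a single array against technical spread, with 2 residual degrees of freedom. Leaving out replicate 1 of experiment 1 lowered the calls over all genes to 19 and leaving out replicate 2 raised them to 130, and median centring gave 0, with 1463 genes at an unadjusted p under 0.05.

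**Figure D3:**
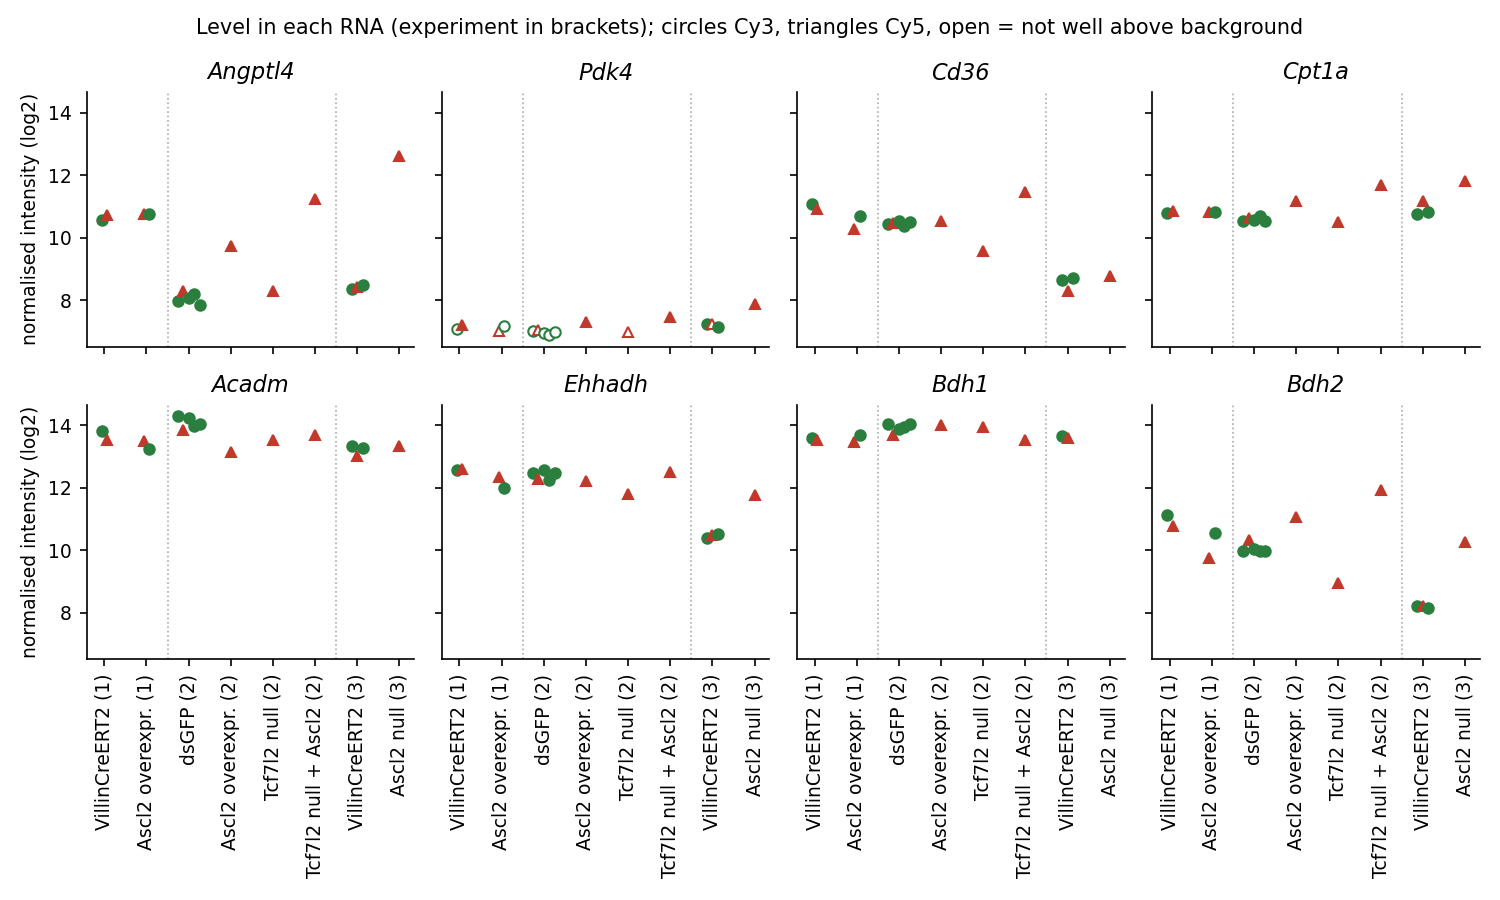
Normalised log2 intensity of each gene's brightest probe in every channel, by RNA, with the experiment in brackets and dotted lines between experiments. Circles are Cy3, triangles Cy5 and open symbols channels not well above background. The VillinCreERT2 RNA of experiment 3 is below that of experiment 1 for Angptl4, Cd36, Ehhadh and Bdh2, and nearer to it for the other genes.

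The control RNAs themselves differed in these genes. Between the VillinCreERT2 controls, 4 of the 8 genes were at least 2-fold lower in experiment 3 than in experiment 1, beside 4.16% of all genes, and 0 higher, beside 5.5%. Bdh2 was lower by 6.77-fold, Cd36 by 5.46-fold, Angptl4 by 4.64-fold and Ehhadh by 4.31-fold. Acadm was lower by 1.40-fold, and Pdk4, Cpt1a and Bdh1 were within 1.07-fold. The second Bdh1 probe, however, was lower in experiment 3, at 9.51 to 10.09 against 10.60 and 10.63. The second Cpt1a probe was at 7.90 to 8.50 against 8.38 and 8.60. The dsGFP control against that of experiment 1 had 1 of 8 at least 2-fold lower, Angptl4 by 5.91-fold, beside 1.23% of all genes, and 0 higher, beside 1.87%. The experiment 3 control against dsGFP had 3 of 8 lower (Ehhadh, Cd36 and Bdh2, by 3.82-fold, 3.76-fold and 3.64-fold), beside 7.43%, and 0 higher, beside 7.26%. These folds and counts are of the brightest probes. The second Bdh2 probe was at 7.18 to 7.41 in experiment 3, 7.93 to 8.06 in dsGFP RNA and 8.68 and 9.05 in experiment 1. It was thus lower by less than 2-fold against dsGFP. The second Cd36 probe was at 7.84 to 7.94, 9.97 to 10.21, and 10.35 and 10.59 in the same order. For the brightest probe of every gene, channels of a control RNA lay within 0.46 of each other, so these gaps exceeded the spread between channels. The second probes of Bdh1 and Cpt1a spread farther in the experiment 3 control. The controls were on different slides, and slide and control cannot be told apart. Summed over 20 enterocyte markers, the log2 level was 18.54 to 18.62 in the experiment 3 control, 19.70 and 19.92 in the experiment 1 control and 19.72 to 20.03 in dsGFP RNA; its part in these gaps was not tested.

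Other genes of the same pathways were read from fixed lists. Of 24 other mitochondrial beta-oxidation genes, 0 were beyond 2-fold on the Tcf7l2 null array or with both changes, with medians of -0.34 and 0.21. Of all genes, 0.952% and 3.41% were at or beyond 2-fold there. On the Ascl2 null array 1 of the 24 was at least 2-fold higher (median 0.29), beside 2.27% of all genes. Between the Tcf7l2 null arrays with and without Ascl2 overexpression these beta-oxidation genes had a median difference of 0.68. At least 2-fold higher were 3 of them, beside 2.88% of all genes. Among these were Acadl, the long-chain dehydrogenase, at 1.38 and the carnitine transporter Slc22a5 at 1.12. Of 18 peroxisomal genes 17 were measured, with medians of -0.44, 0.27 and 0.31 on those arrays and a median difference of 0.75. Scp2, a peroxisomal thiolase and carrier, and Slc27a2, a fatty acyl-CoA synthetase, differed by 1.05 and 1.46, the 2 of the 17 that were at least 2-fold higher. Among 7 ketone body genes the median difference was 0.14. In experiment 1 the mitochondrial and peroxisomal medians were -0.18 and -0.31 on replicate 1 and -0.09 and -0.24 on replicate 2. With median centring they were 0.42 and 0.29 on replicate 1, and -0.99 and -0.99 on replicate 2, whose dyes were exchanged. They were 0.47 and 0.51 on the dsGFP self-self array, which compares an RNA with itself, so that shift is technical. On the Tcf7l2 null array they were -0.03 and -0.05, and the ketone median was 0.03 instead of -0.35. The direction on replicate 1 and that of the ketone genes on the Tcf7l2 null array thus rest on the scaling. The ketone median also changed sign with both changes, from -0.07 to 0.27, and on the Ascl2 null array, from 0.04 to -0.20. On the other comparison arrays the mitochondrial and peroxisomal medians kept their sign, and their sizes rest on the scaling. The median differences between the Tcf7l2 null arrays were 0.72, 0.76 and 0.19 with median centring.

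Further PPAR targets behaved unevenly. Of 26 listed, 23 were measured, and 3 were at least 2-fold lower on the Tcf7l2 null array, 3 at least 2-fold higher with both changes and 5 on the Ascl2 null array, with medians of -0.49, 0.19 and 0.42. Of all genes, 0.538%, 1.25% and 2.27% were so on these arrays. Me1, the cytosolic malic enzyme, had the widest range, from -2.27 on the Tcf7l2 null array to 1.03 with Ascl2 overexpression added and 2.32 on the Ascl2 null array, with -0.83 and -0.22 in experiment 1. Cidec, a lipid droplet protein, was -1.02, 0.50 and 1.54 on those 3 arrays and -1.31 and -0.25 in experiment 1. Vnn1, a pantetheinase, was 0.17, 1.71 and 2.26, and 2.16 with Ascl2 overexpression in experiment 2, where Me1 and Cidec were -0.64 and -0.22. Fabp2, the intestinal fatty acid binding protein, was -0.56, 1.16 and 1.34 and is also an enterocyte marker. In the shared Ascl2 model 0 of the 23 were called by limma. At an unadjusted p under 0.05, 9 were lower and 0 higher, beside 3.79% and 3.06% of all genes.

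Among 12 receptors and partners, Ppara, the receptor of fatty acid oxidation, was -0.55 on the Tcf7l2 null array, 0.60 with Ascl2 overexpression added, 0.38 with Ascl2 overexpression alone and 0.80 on the Ascl2 null array, beside -0.02 and 0.05 on the self-self arrays. In experiment 1 it was -0.19 and -0.07. Ppara and Ppargc1a, a coactivator of oxidative metabolism, were the 2 of the 12 that differed by at least 2-fold between the Tcf7l2 null arrays, by 1.16 and 1.12. Of all genes, 2.88% were at least 2-fold higher in that difference. Pparg was 0.20, 0.62, 0.70 and 0.41 on those 4 arrays, and Ppard, another receptor, -0.05, -0.26, -0.16 and 0.16. Ppara, Ppard, Pparg and Ppargc1a were singled out after their values were seen.

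**Figure D4:**
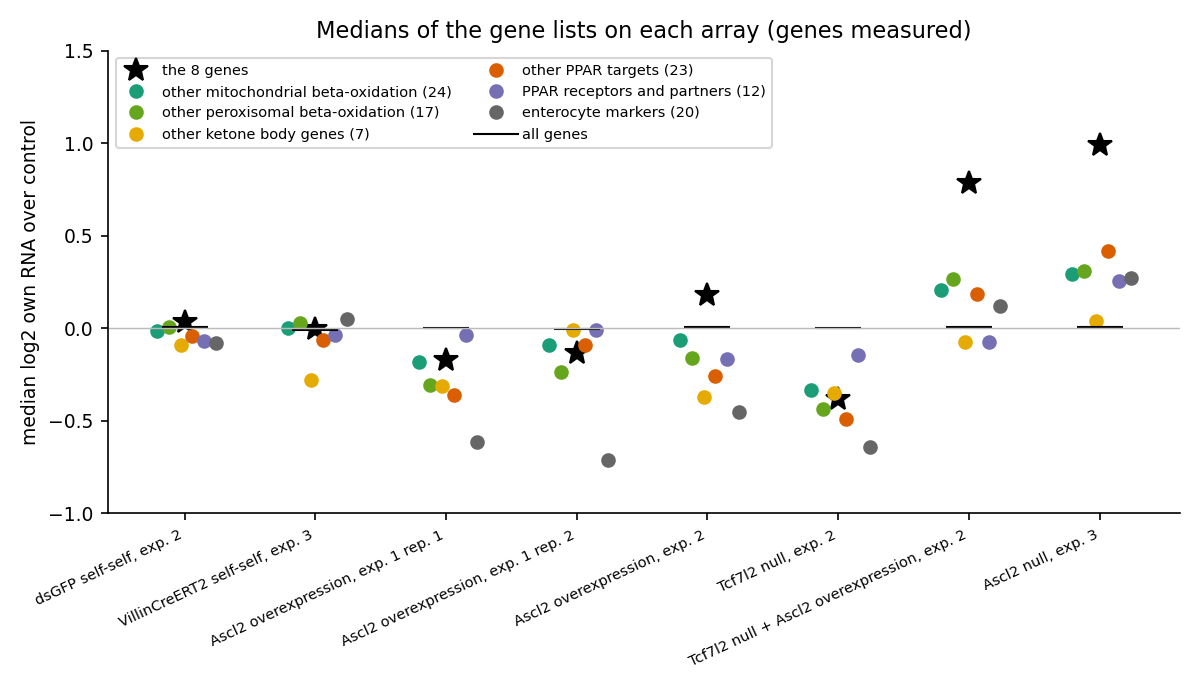
Median log2 ratio of own RNA over control on each array for the 8 genes (stars), 5 lists of further pathway genes, the enterocyte markers (circles, with the number measured) and all genes (bars). The 8 genes had a median of 0.78 with both changes, and the 7 measured on the Ascl2 null array, without Bdh1, one of 0.99. The other lists lay between -0.08 and 0.42 on these last 2 arrays.

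Markers of cell types also differed from control on these arrays. The enterocyte list had medians of -0.62 and -0.71 in experiment 1, -0.64 on the Tcf7l2 null array, -0.45 with Ascl2 overexpression in experiment 2, 0.12 with both changes and 0.27 on the Ascl2 null array. With median centring these were 0.05 and -1.81, -0.14, -0.29, 0.79 and 0.12, and the dsGFP self-self array was at 0.57 instead of -0.08, so the sizes, and the direction on replicate 1, rest on the scaling. In experiment 2 the summed enterocyte level was 19.42 in Tcf7l2 null RNA, 19.50 with Ascl2 overexpression and 19.99 with both, against 19.72 to 20.03 in the control. In experiment 3 it was 19.16 in Ascl2 null RNA against 18.54 to 18.62 in the control. The 11 enteroendocrine markers measured had medians of 0.09, 0.45 and 1.04 on the Tcf7l2 null, Ascl2 overexpression and combined arrays and 3.07 on the Ascl2 null array, with 9 of 11 at least 2-fold higher on the last, beside 2.27% of all genes, and -0.9995 and -0.27 in experiment 1. Their summed level was 17.57, 17.86 and 18.21 against 17.27 to 17.87 in dsGFP RNA, and 17.53 against 15.82 to 15.95 in experiment 3. The 9 tuft cell markers measured had medians of -0.04, 0.84, 1.29 and 0.26 on those 4 arrays, and summed levels of 11.43, 12.37, 12.89 against 11.42 to 11.61, and 11.69 against 11.19 to 11.37. Crypt base stem cell markers (12) had medians of 0.49, -0.59, -1.13 and -0.63, and Paneth cell markers (7) -0.32, -1.76, -1.73 and 0.08. Goblet cell markers (8) had medians of -0.09, 0.11, 0.11 and 0.15, beside -0.03 on the dsGFP and 0.26 on the VillinCreERT2 self-self array. Their summed levels were 18.54, 18.79 and 18.97 against 18.52 to 18.66 in dsGFP RNA, and 17.63 against 17.69 to 17.96 in experiment 3. The high values of Angptl4 and Bdh2 thus fell on arrays where enteroendocrine and tuft lists were also above 0, and stem cell markers below it. On the same arrays the goblet list was above 0 by little, and on the Ascl2 null array below its VillinCreERT2 self-self value. Enterocyte markers were above 0 with both changes and on the Ascl2 null array, and below it with Ascl2 overexpression in experiment 2. The part of these cells in the result was not tested.

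By root mean square difference over the 6 comparison arrays, among 19155 genes with a value on each, the genes most like Angptl4 were BC064078 (0.44), S100g (0.61) and Rbp4 (0.63). BC064078, kept under its array name, was 2.90 with Ascl2 overexpression in experiment 2, 3.21 with both changes and 3.94 on the Ascl2 null array. Bdh2 was most like Ggt1 (0.31), Batf2 (0.32) and Slc28a3 (0.35), Cd36 was most like Ensa (0.09), Slc7a15 (0.15) and Gk (0.16), and Ehhadh was most like Dhrs11 (0.13), Tmem86a (0.17) and Mttp (0.19). None of the 8 genes was among the closest 3 of these 4.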

How the data were processed

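Spot intensities came from deposited scanner files, made with Feature Extraction 10.5.1.1 per the file headers; the log10 ratio in them, Cy5 over Cy3, already has the authors' background and dye correction. In the authors' deposited value table, log2 ratios have the same scale with no further centring and are turned on replicate 2 of experiment 1, where (with replicate 1) 8.49% and 8.70% of values differed from the scanner's by over 0.02. Its array medians ran from -0.01 to 0.03. Median spot and background signals were corrected with normexp (offset 50), ratios normalised by loess within arrays, which cannot show a shift of all genes, and levels by the Aquantile method between arrays (R 4.3.3, limma 3.58.1). Outlier spots were dropped. Of 41174 probes, 27621 were well above background in a channel on at least 2 of 8 arrays; the brightest stood for each gene, named through RefSeq (26918 probes by their own accession, 97 by another) or the array (14159). No spot was saturated, 50.1% to 67.4% of spots per channel were well above background, and the number of arrays limits precision.

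Limma models over all 8 arrays held a dye term, the Ascl2 effect (shared, or 1 per experiment) and 1 effect per other condition, with two-sided p-values adjusted by Benjamini-Hochberg over all genes. A missing spot on an array with an effect of its own was filled for the fit, where it carries no weight. Fits were checked on simulated data. Ratios of single arrays are as measured. All 8 genes are named, and of the further lists those at or beyond 2-fold on at least 2 of 6 arrays (at most 4 a list), beside examples chosen for their values. Genes and lists were chosen with earlier results of these data known.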

Additional observations from a re-analysis of the deposited data

Results flagged for a closer look

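With Ascl2 overexpression, 3 of the 8 genes were above 0 on the array of experiment 2 and below 0 on both arrays of experiment 1. These were Bdh2 at 1.09 against -1.38 and -0.22, Pdk4 at 0.32 against -0.08 and -0.01, and Cd36 at 0.046 against -0.80 and -0.23. The difference between the experiments was tested by limma and passed for none of the 3 (adjusted p = 0.212 for Bdh2, 0.751 for Pdk4 and 0.467 for Cd36). The Pdk4 values of experiment 1 and the Cd36 value of experiment 2 are no larger than self-self ratios of some of these genes, and the signs there carry little weight. No group held 4 or more arrays, so none could be examined for an array far from the rest.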

How the results depend on the processing

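Among the counts of calls and of genes beyond 2-fold, 32 alternative values were within 1.5 times the reported one and 20 were not; of the values of single genes, 364 kept their side of the threshold or, untested, moved by less than the residual SD, 24 moved by more, 4 newly passed and 16 changed sign in a test. Single-array values, which are counted above by size, changed sign in 10 further cases. Median centring gave 0 calls for the difference between experiments (81 reported), 1 of 8 genes beyond 2-fold with Ascl2 overexpression in experiment 2 and 0 on the Tcf7l2 null array. The scanner's log ratio gave 2 calls in experiment 1 (0 reported), and 2, 5 and 5 genes beyond 2-fold on the Tcf7l2 null, combined and Ascl2 null arrays. The authors' deposited table gave 26 calls in experiment 1, 9 higher and 17 lower, 149 for the difference (114 higher, 35 lower), and also 2, 5 and 5 genes, beside 6.52%, 10.8% and 9.98% of all genes beyond 2-fold (0.952%, 3.41% and 3.92% reported). The mean of a gene's probes gave 1, 0 and 5 genes with Ascl2 overexpression in experiment 2, on the Tcf7l2 null and on the Ascl2 null array, beside 1.63%, 0.843% and 3.45% of all genes, and the ratio less the dye term 0 on the Tcf7l2 null array. Leaving out a replicate of experiment 1 gave 3 to 4 calls in experiment 1 and 19 to 130 for the difference. The cause was not tested. Over all genes, those at or beyond 2-fold were, with the scanner's log ratio, 1145 higher and 864 lower with Ascl2 overexpression in experiment 2, 811 and 860 with loss of Tcf7l2, 1328 and 1053 with both changes and 981 and 978 on the Ascl2 null array.

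Among tested values, these changed sign. With median centring, Bdh1 was -0.21 in the shared model, Cpt1a 0.14 and Bdh1 -0.16 in experiment 1, and Cpt1a -0.070, Ehhadh -0.35 and Bdh1 -0.17 for the difference. The mean of a gene's probes gave Bdh1 -0.051 for the difference. Leaving out an Ascl2 array gave, in the shared model, -0.044 to 0.16 for Pdk4, -0.014 to 0.30 for Cpt1a and -0.80 to 0.43 for Bdh2, the last being positive without replicate 1 of experiment 1. In experiment 1 it gave -0.0092 to 0.24 for Angptl4, -0.26 to 0.23 for Cpt1a, -0.68 to 0.066 for Acadm and -0.065 to 0.077 for Bdh1. For the difference it gave -0.58 to 0.17 for Acadm and -0.032 to 0.43 for Ehhadh. On single arrays, Bdh1 with Ascl2 overexpression in experiment 2 (-0.03 reported) was 0.0006 with median centring, 0.018 with the mean of probes and 0.15 less the dye term. The rest came with median centring and are given with the results. Where leaving out an array left 1 in a group, it was assumed to vary like the rest. A dye term per slide gave 0 calls in the shared model; it was not run for experiment 1 and the difference, where it leaves no residual degrees of freedom. No paired analysis was possible because replicate numbers occur within 1 group only. Single arrays, and for Pdk4 a signal near background, limit these values.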
